A study of Mus musculus with 17 samples.

Results

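Mitochondrial ribosome proteins are the protein subunits of the ribosome that works inside mitochondria. They were taken here as every probe set that carried exactly 1 gene symbol, and whose symbol was Mrpl (large subunit) or Mrps (small subunit) followed by a number, without pseudogenes. The rule found 85 of the 21354 probe sets with 1 symbol. They stand for 77 of 19751 genes, of which 48 are named for the large and 29 for the small subunit, and counts by subunit follow these names. In 8 genes 2 probe sets carried the symbol, and the one with more accessions listed was used. Accessions were equal in number for Mrpl23, Mrpl27, Mrpl41, Mrps33 and Mrps36, where the lower probe set number decided. That choice was arbitrary, and the second probe sets are given where they matter. A further probe set listed several symbols and was left out.

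Total RNA of plasmacytoid dendritic cells (pDC) from C57BL/6 mouse bone marrow had been run on 17 Affymetrix arrays. The cells were negatively selected with magnetic beads and then sorted as CD11c-intermediate, B220+ and SiglecH+. There were 6 culture groups. Cells in medium alone gave 2 arrays, numbered 1 and 3. The other 5 groups gave 3 arrays each: CpG-B, CpG-A, either of them with LIF, and LIF by itself. LIF (leukaemia inhibitory factor, a cytokine of the gp130 and STAT3 pathway) was used at 10 ng/ml for 20 to 24 h. CpG-A (oligonucleotide 2216) and CpG-B (oligonucleotide 1826) were used at 6 ug/ml, for 19 to 23 h by the sample labels and 18 to 24 h by the series text, after LIF for 1 h where both were given. No group carries an engineered allele in the labels. How many mice stand behind an array, and whether replicates came from separate cultures, is not given, so p-values measure the spread between arrays only.

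Mitochondria keep a small genome that encodes core subunits of the respiratory chain, and these messages are translated by the mitochondrial ribosome. Its ribosomal RNAs are made in the organelle, whereas all of its proteins are encoded in the nucleus, made in the cytosol and imported. Many are relatives of bacterial ribosome proteins, and others have no bacterial counterpart. In pDC, CpG DNA is sensed by TLR9 in endosomes. CpG-A is known as the stronger inducer of type I interferon and CpG-B as the stronger inducer of maturation and cytokines such as IL-6.

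The deposited intensities have lost their decimal mark. The power of 10 of a value is unknown, so log2 values repeat with a period of 3.32, the log2 of 10. Each difference below is the nearest reading on the log2 scale, which lies between -1.66 and 1.66, and the other possible reading lies 1 period away. A gene was called when its adjusted p was under 0.05 (limma, Benjamini-Hochberg over all 19751 genes). Direction was given to called readings of at most 1.11 in size (2.15-fold), for which the alternative is a change of at least 4.64-fold the other way. For larger readings both values are given and no direction. Expression levels could not be recovered, so members cannot be ranked by abundance, and the labelled cell type could not be checked against the levels of its markers. RNA per cell and the number of cells cannot be told apart in such bulk samples.

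The array medians over the 77 genes set the frame. They were 0.008 and -0.008 in medium, and -0.105, -0.046 and 0.029 with LIF, on the scale of readings against the medium mean. With CpG-A they were -0.180, 0.112 and -0.016, and with CpG-A + LIF -0.037, 0.266 and 0.078. With CpG-B they were 0.336, 0.469 and 0.342, and with CpG-B + LIF 0.528, 0.558 and 0.557. Every CpG-B array stood above every array without CpG-B, and the CpG-A arrays spread around 0. Over all genes the array medians ran only from -0.065 to 0.001.

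**Figure D1:**
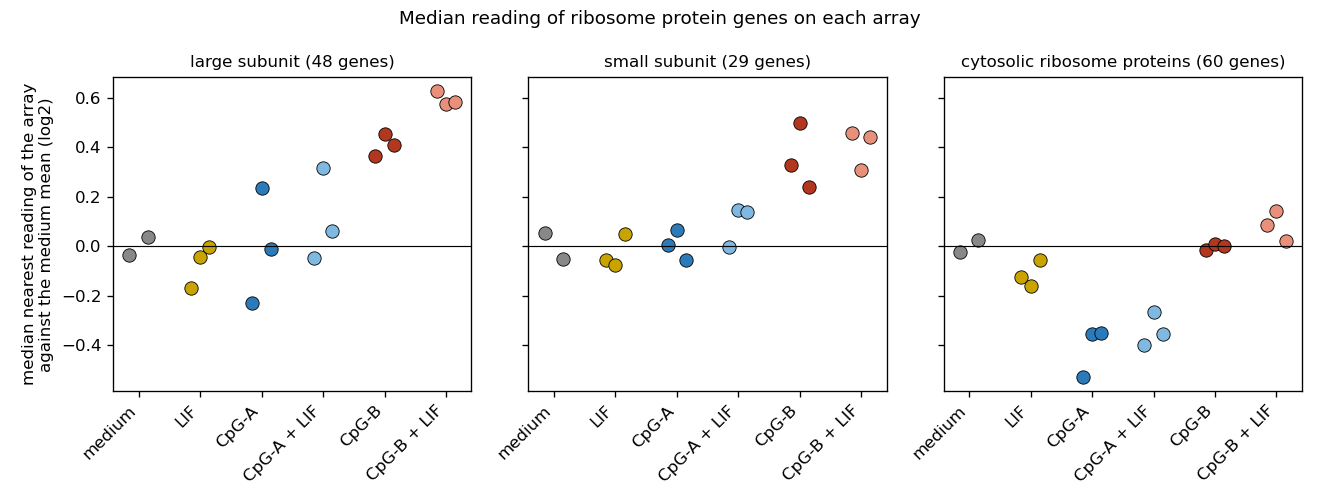
Each point is 1 array, and the vertical axis is the median nearest reading (log2) of a gene list against the mean of the 2 medium arrays, for the large subunit, the small subunit and the cytosolic ribosome. Large subunit medians lie between 0.36 and 0.63 on the 6 arrays with CpG-B, and the cytosolic list lies lowest, from -0.53 to -0.27, on the 6 arrays with CpG-A.

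CpG-B against medium asks how the B-class oligonucleotide alone moved the members. Of the 77 genes 25 were called, 19 read higher, none read lower, and 6 had no direction. Across all genes 19.2% were called in this comparison (6.94% higher, 7% lower and 5.27% without direction), against 32.5% of the members. The median reading was 0.355 over the members and -0.051 over all genes, and 67 of 77 members read above 0. In the large subunit 17 of 48 genes were called and in the small subunit 8 of 29. The called genes that read higher ran from Mrpl57 (0.50) to Mrpl32 (1.08, a large subunit protein known for its processing by a mitochondrial protease, with SE 0.20 and adjusted p = 0.000583 by limma). Leaving out medium replicate 3 left 1 medium array. Fewer members and fewer of all genes were then called, and the members' median was 0.358.

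The gene with the smallest adjusted p was Mrps28, a small subunit protein. Its deposited digits started 1.9 and 2.14 on the medium arrays and 5.04, 5.36 and 5.64 on the CpG-B arrays. Against the medium mean the CpG-B arrays read 1.33, 1.41 and 1.49, and the CpG-B + LIF arrays 1.42, 1.50 and 1.38. These 6 arrays lay close together and apart from all others. The CpG-A arrays read 0.14, 0.39 and 0.39, the CpG-A + LIF arrays 0.47, 0.77 and 0.62, and the LIF arrays 0.04, -0.26 and -0.76. The LIF arrays were thus the most scattered. CpG-B against medium gave 1.41 (or -1.91), SE 0.18, adjusted p = 2.18e-05. CpG-A read lower than CpG-B by 1.10 (reading -1.10, adjusted p = 0.000125), and CpG-A + LIF read higher than LIF by 0.95 (adjusted p = 0.000317).

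Mrps22 is a mitochondria-specific small subunit protein. The CpG-B arrays read 1.28, 1.36 and 1.15 and the CpG-A arrays 0.67, 0.68 and 0.79. With CpG-A + LIF the readings were 0.67, 0.83 and 0.72. Each CpG-A array lay above the medium arrays (0.18 and -0.18) and the LIF arrays (-0.41, 0.26 and 0.22) and below each CpG-B array. The CpG-B + LIF arrays read 1.35, 1.22 and -1.66, and the last of these lies at the edge of the period, where 1.66 and -1.66 are nearly the same value. Mrps22 was called in 6 comparisons, more than any other member. CpG-B against medium gave 1.26 (or -2.06), SE 0.19, adjusted p = 7.96e-05, and CpG-A against medium 0.71, SE 0.19, adjusted p = 0.011.

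Mrpl47 belongs to the large subunit near the exit of the peptide tunnel. It read 0.92, 1.43 and 1.19 with CpG-B and 1.54, 1.23 and 1.09 with CpG-B + LIF. It read 0.29, 0.89 and 0.39 with CpG-A and 0.27, 0.67 and 0.47 with CpG-A + LIF. The LIF arrays (-0.17, -0.06 and -0.21) stayed beside medium (0.07 and -0.07), and the highest CpG-A array lay just under the lowest CpG-B array. CpG-B against medium gave 1.18 (or -2.14), SE 0.19, adjusted p = 0.00019. The other Mrpl47 probe set gave -0.15 in that comparison (adjusted p = 0.722 in the fit of all probe sets), so the 2 probe sets of this gene disagreed.

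Mrps30, which despite its name sits in the large subunit in structures of the mammalian mitochondrial ribosome, read 1.33, 1.08 and 1.50 with CpG-B. It read 0.63, 0.86 and 0.62 with CpG-A, 0.28, 0.41 and 0.47 with LIF, and 0.19 and -0.19 in medium. CpG-A lay between medium and CpG-B without overlap. With LIF that separation was lost, since CpG-A + LIF read 0.36, 1.35 and 1.03 and CpG-B + LIF 1.15, 1.25 and 1.33. CpG-B against medium gave 1.30 (or -2.02), SE 0.21, adjusted p = 0.000212, and CpG-A against medium 0.70, adjusted p = 0.0288.

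Mrpl12, a protein of the stalk that also binds the mitochondrial RNA polymerase, was tightly placed with CpG-B at 0.70, 0.73 and 0.71. With CpG-B + LIF it read 1.09, 1.02 and 0.94. Medium read 0.01 and -0.01, and CpG-A -0.60, -0.04 and -0.01. The LIF arrays read -0.66, -0.17 and 0.09 and the CpG-A + LIF arrays -0.01, 0.46 and 0.16, so no array without CpG-B reached the CpG-B arrays. CpG-B read higher than medium by 0.71 (1.64-fold, SE 0.20, adjusted p = 0.017), and CpG-A read below CpG-B (-0.93, adjusted p = 0.00165).

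Mrpl54, a mitochondria-specific large subunit protein, showed a graded order. It read -0.03 and 0.03 in medium, 0.47, 0.51 and 0.57 with CpG-A, and 0.98, 0.98 and 1.14 with CpG-B. With LIF it read 0.22, -0.25 and -0.22, with CpG-A + LIF 0.65, 0.79 and 0.71, and with CpG-B + LIF 1.22, 1.06 and 0.68. Medium, CpG-A and CpG-B did not overlap, but the third CpG-B + LIF array fell among the CpG-A + LIF arrays. CpG-B read higher than medium by 1.03 (2.05-fold, SE 0.16, adjusted p = 0.000142) and CpG-A by 0.52 (1.43-fold, SE 0.16, adjusted p = 0.0337).

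Mrpl55, a large subunit protein of the central protuberance, read 1.06, 0.74 and 1.00 with CpG-B against -0.23 and 0.23 in medium. The CpG-A arrays read 0.35, 0.43 and 0.52, and the LIF arrays 0.42, 0.41 and 0.04, which overlapped them. With CpG-A + LIF it read 0.35, 0.90 and 0.53, so the second of these arrays lay above the second CpG-B array. With CpG-B + LIF it read 1.09, 1.11 and 0.95. CpG-B read higher than medium by 0.93 (1.91-fold, SE 0.18, adjusted p = 0.00089). Mrpl1, a protein of the flexible side of the large subunit, read 0.85, 0.47 and 0.79 with CpG-B and 1.05, 0.83 and 1.17 with CpG-B + LIF. Its CpG-A arrays read 0.03, 0.29 and -0.01, and its CpG-A + LIF arrays 0.31, 0.33 and 0.35. CpG-B arrays therefore lay above CpG-A arrays in both backgrounds for Mrpl1, and CpG-B read higher than medium by 0.70 (SE 0.16, adjusted p = 0.00311).

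Mrpl3, a core protein of the large subunit, read 0.76, 0.52 and 0.55 with CpG-B and 0.06 and -0.06 in medium. With CpG-A it read 0.08, 0.78 and 0.06, and the second of these arrays lay above all 3 CpG-B arrays. CpG-B read higher than medium by 0.61 (SE 0.19, adjusted p = 0.0279). Mrps18b, a small subunit protein, read 1.45, 1.59 and 1.06 with CpG-B and 0.10, 1.31 and 0.29 with CpG-A, where the second CpG-A array again stood apart. Its CpG-B + LIF arrays read -1.42, -1.29 and -1.19, which is equally a rise of more than the CpG-B arrays show, so its direction could not be settled. CpG-B against medium gave 1.37 (or -1.96) for Mrps18b, SE 0.27, adjusted p = 0.00127. Mrps27, a mitochondria-specific small subunit protein, gave -1.62 or 1.70 (adjusted p = 0.000171), 2 readings of nearly equal size.

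**Figure D2:**
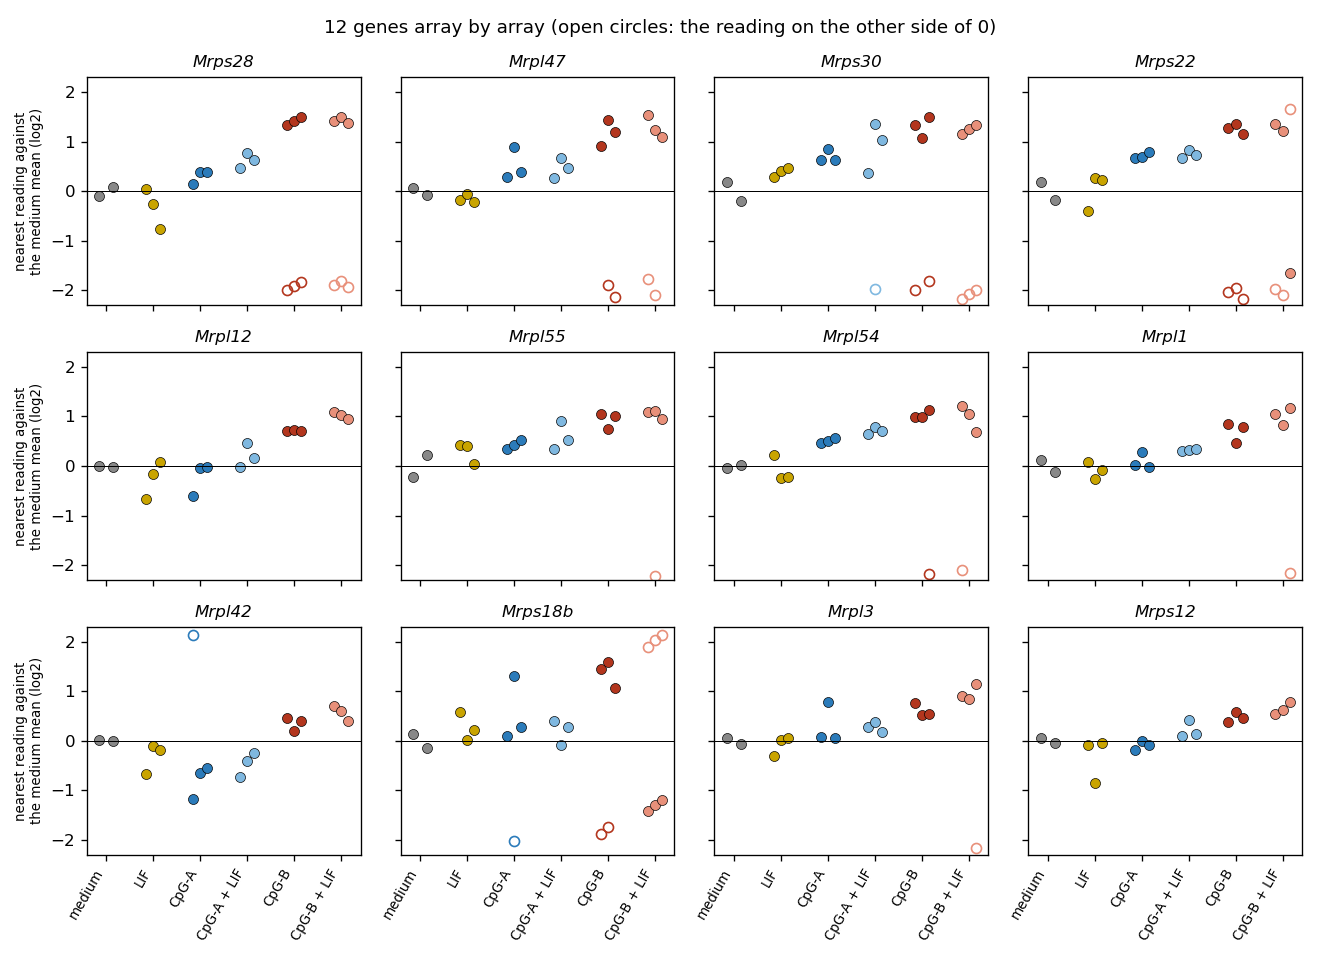
Each panel is 1 of the 12 genes described array by array, each filled point is 1 array, and the vertical axis is the nearest reading (log2) against the mean of the 2 medium arrays. Open circles repeat a point at its other reading where it exceeds 1.11 in size, and Mrpl12 shows the CpG-B arrays at 0.70 to 0.73 against -0.60 to -0.01 for CpG-A.

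The sequence before the start site is shown for the members called in at least 5 comparisons for which the RefSeq promoter table (GRCm38.p6) held an entry, so that the searched motifs can be seen in place. Each line holds the 250 bases before the start, 5′ to 3′ on the gene's strand, and capitals mark CCGGAAG (ETS and GABP factors) and GGGCGG (SP1), or their reverse complements. The coordinates are chr9:98601680-98601929 on the minus strand for Mrps22, chr3:32736756-32737005 on the minus strand for Mrpl47 and chr5:96209865-96210114 on the plus strand for Mrpl1. The RefSeq span of Mrpl1 begins at 96209498, so its stretch lies inside that span, before a later start. Mrpl54 and Mrps28 are named only.
Mrps22: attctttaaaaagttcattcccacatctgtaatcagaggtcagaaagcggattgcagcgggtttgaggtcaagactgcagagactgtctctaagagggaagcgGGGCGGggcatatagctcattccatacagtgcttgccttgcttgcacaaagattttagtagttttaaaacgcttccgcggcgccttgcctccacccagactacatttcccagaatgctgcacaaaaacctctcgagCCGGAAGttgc
Mrpl47: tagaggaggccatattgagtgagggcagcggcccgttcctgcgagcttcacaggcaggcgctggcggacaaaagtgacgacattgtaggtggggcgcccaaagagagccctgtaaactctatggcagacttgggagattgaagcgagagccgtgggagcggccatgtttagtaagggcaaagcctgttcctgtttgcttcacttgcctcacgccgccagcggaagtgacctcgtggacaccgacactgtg
Mrpl1: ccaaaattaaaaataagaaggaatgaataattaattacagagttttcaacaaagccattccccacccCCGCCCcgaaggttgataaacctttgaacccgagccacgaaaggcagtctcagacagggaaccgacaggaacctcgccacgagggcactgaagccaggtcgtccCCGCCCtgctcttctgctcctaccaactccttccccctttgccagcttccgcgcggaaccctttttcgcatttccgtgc
Mrps22 held 1 ETS and 1 SP1 match, Mrpl1 held 2 SP1 matches on the opposite strand, and the Mrpl47 stretch held none of the searched letters.

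Promoter windows of 300 bases (250 before and 50 after the start, both strands searched) were found for 68 of the 77 members and for 15434 genes on the array. CCGGAAG was in 36.8% of the members' windows (25 of 68), 13.7% of all windows and 37.5% of those of cytosolic ribosome proteins. Among members with a window, 11 of 44 genes called in CpG-B + LIF against LIF held it (25%), and 14 of 24 genes not called there (58.3%). AAGATGGCG (YY1) was in 11.8% of the members' windows, 2.31% of all and 2.08% of the cytosolic list. GCATGCG (NRF1) was in 11.8% of the members' windows, 5.4% of all and 10.4% of the cytosolic list, so the cytosolic share was near the members'. A longer NRF1 motif was in 4.41%, 1.63% and 4.17%, in the same order. CACGTG (the E-box that MYC binds) was in 7.35% of the members' windows and 9.53% of all, and GGGCGG in 50% and 53.3%. Their cytosolic shares were 10.4% and 58.3%. The split into called and not called members gave 11.4% and 12.5% for YY1 and 13.6% and 8.33% for the shorter NRF1 motif. It gave 6.82% and 0% for the longer NRF1 motif, 6.82% and 8.33% for the E-box, and 50% and 50% for SP1. The CCGGAAG split was the widest of those made and was not shared by the other motifs. These shares are descriptions without a test, and a match is not a bound site.

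CpG-B + LIF against LIF shares no array with CpG-B against medium. Here 50 of 77 members were called, 38 of them higher, none lower and 12 without direction. Across all genes 25.4% were called (10.5% higher, 9.02% lower and 5.94% without direction). The median reading was 0.583 over the members and -0.040 over all genes, and 71 of 77 members read above 0. In the large subunit 35 of 48 genes were called (median 0.613) and in the small subunit 15 of 29 (median 0.384). The 2 comparisons shared 22 called members, which is 88% of those called without LIF and 44% of those called with it. The overlap over all genes was not counted, so these shares are not a trait of the members. Whether LIF altered the CpG-B response was tested by the interaction, which called no member (smallest adjusted p = 0.143, limma, with 10 members at an unadjusted p under 0.05). The members' median interaction was 0.266, with 61 of 77 above 0. Across all genes 0.137% were called in that interaction.

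In the large subunit, the members that read higher with CpG-B + LIF included Mrpl1 (1.10, adjusted p = 1.14e-05), Mrpl54 (1.07, adjusted p = 2.08e-05) and Mrpl3 (1.05, adjusted p = 0.000122). Mrpl42, a mitochondria-specific protein, read 0.89 (SE 0.18, adjusted p = 0.00101). Without direction were Mrpl47 (1.43 or -1.89), Mrpl12 (1.27 or -2.06) and Mrpl17 (1.19 or -2.13, a relative of a bacterial protein). In the small subunit, Mrps12, whose bacterial relative lies at the decoding site, read 0.54, 0.62 and 0.79 on the CpG-B + LIF arrays and -0.08, -0.84 and -0.05 on the LIF arrays. The groups did not overlap, although the second LIF array lay far below the others, and the difference was 0.97 (1.96-fold, SE 0.17, adjusted p = 0.000271). Mrps5 gave 1.27 (or -2.05), Mrps22 1.39 (or -1.93), and Mrps27 1.58 (or -1.74). Mrps18b gave -1.58 (or 1.75) and Mrps28 -1.56 (or 1.76). For these small subunit genes this comparison by itself gives no direction. For Mrps28, CpG-A + LIF read 0.95 against LIF and -0.81 against CpG-B + LIF, which add up with 1.76 and not with -1.56. For Mrps22 the same 2 readings were 0.72 and -0.67, which add up with 1.39. This holds only if those smaller readings are the true ones.

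**Figure D3:**
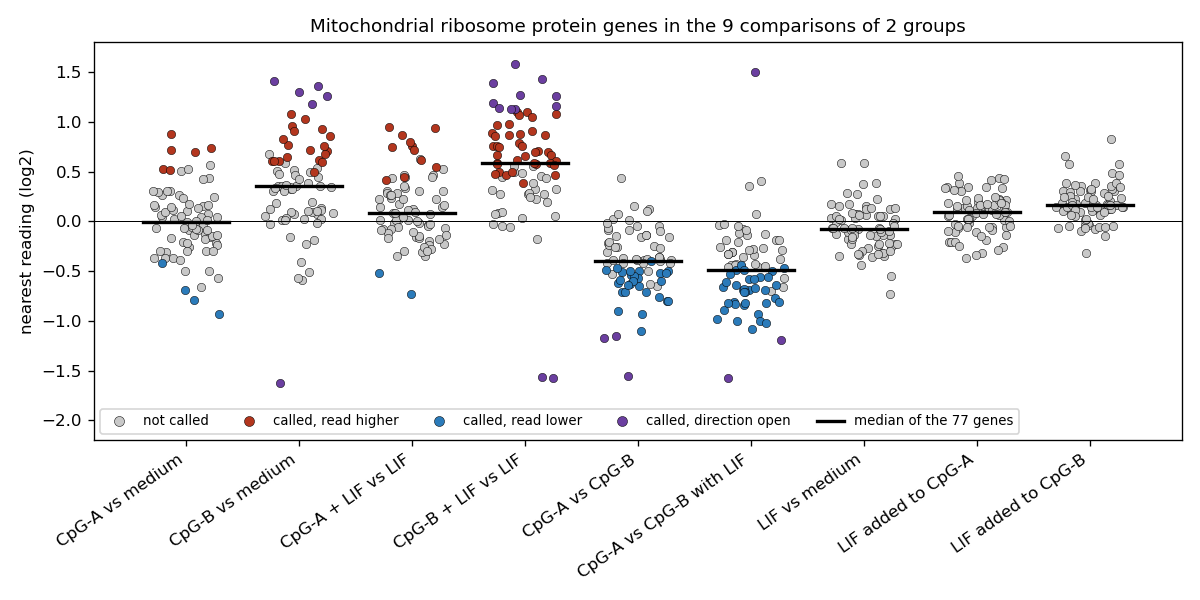
Each point is 1 of the 77 genes, placed by its nearest reading (log2) in each of the 9 comparisons, coloured by call, and the black line is the median of the 77 genes. The medians stand at 0.355 and 0.583 for CpG-B without and with LIF, at -0.003 and 0.086 for CpG-A, and no gene is coloured in the 3 comparisons of LIF.

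CpG-A against medium shares its medium arrays with CpG-B against medium, so the 2 are given side by side only. Of the members 10 were called, 6 higher and 4 lower, which is 13% of the members. Across all genes 16.7% were called (4.91% higher, 7.15% lower and 4.64% without direction). The median reading was -0.003 over the members and -0.021 over all genes. Genes called higher under large subunit names were Mrpl32 (0.88, SE 0.20, adjusted p = 0.00399), Mrpl39 (0.52, SE 0.13, adjusted p = 0.00626) and Mrpl54. Those under small subunit names were Mrps18c, Mrps22 and Mrps30, the last of which sits in the large subunit. Mrps18c read 0.65, 0.84 and 0.72 with CpG-A and 0.03 and -0.03 in medium, a rise of 0.74 (1.67-fold, SE 0.12, adjusted p = 0.000339). Its CpG-B arrays read 0.51, 0.74 and 0.59, which overlapped those with CpG-A.

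The genes called lower with CpG-A were Mrpl34, Mrpl42, Mrpl33 and Mrps34. Mrpl34, a small core protein of the large subunit, read -1.08, -0.69 and -1.01 with CpG-A against -0.15 and 0.15 in medium. The fall was 0.93 (reading -0.93, SE 0.24, adjusted p = 0.00955). Mrpl33, of the same subunit, fell by 0.69 (SE 0.17, adjusted p = 0.00836) and Mrps34, a mitochondria-specific protein, by 0.42 (SE 0.13, adjusted p = 0.0369). Mrpl42 read -1.18, -0.64 and -0.54 with CpG-A, 0.01 and -0.01 in medium, and 0.47, 0.21 and 0.40 with CpG-B. CpG-A thus lay below medium and CpG-B above it in every array of Mrpl42, but only the CpG-A difference was called (-0.79, SE 0.20, adjusted p = 0.0093), and CpG-B against medium gave 0.36 (adjusted p = 0.253).

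The count for CpG-A was small and rested on few arrays. Without medium replicate 1, which left 1 medium array, fewer members and fewer of all genes were called. The members' median was -0.028 in that fit. The first CpG-A array read low over the members as a whole (median deviation from its group -0.157) and the second high (0.149), while their deviations over all genes were 0.003 and -0.01. Marker lists moved with CpG-A as well. Of 15 pDC markers 9 were called (3 higher, 3 lower, 3 without direction), of 9 B cell markers 3, of 11 conventional DC and macrophage markers 6, and of 10 T, NK and neutrophil markers 2. With CpG-B the corresponding counts were 11 (2 higher, 4 lower, 5 without direction), 2, 6 and 4. Across all genes 16.7% were called with CpG-A and 19.2% with CpG-B. Summed marker levels could not be formed from these values, and the part of other cell types in the members' readings was not tested.

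CpG-A + LIF against LIF called 13 members, 11 higher and 2 lower, where 17.4% of all genes were called (6.23% higher, 7.29% lower and 3.85% without direction). The median reading was 0.086 over the members and 0.013 over all genes. The largest were Mrps28 (0.95), Mrpl14 (0.94, SE 0.16, adjusted p = 0.000252), Mrpl27 (0.87, SE 0.17, adjusted p = 0.00136) and Mrpl54 (0.80, SE 0.15, adjusted p = 0.000591). Mrpl32 (0.76) and Mrpl39 (0.75) followed, and Mrpl34 (-0.73, adjusted p = 0.0212) and Mrpl33 (-0.52, adjusted p = 0.0253) read lower. The other Mrpl27 probe set gave 0.23 (adjusted p = 0.364 in the fit of all probe sets). With and without LIF, CpG-A had 6 called members in common, namely Mrpl32, Mrpl33, Mrpl34, Mrpl39, Mrpl54 and Mrps22. They are 60% of those called without LIF and 46.2% of those called with it, and the overlap over all genes was not counted. Without CpG-A + LIF replicate 3 the count was 8, where 2824 of all genes were called, against 3430 with every array. The interaction of LIF with CpG-A called no member (smallest adjusted p = 0.582, limma, 6 members at an unadjusted p under 0.05), with 0.0506% called across all genes.

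CpG-A was also set against CpG-B directly. Without LIF 31 of 77 members were called, 28 lower with CpG-A, none higher and 3 without direction, where 13% of all genes were called (4.42% higher, 6.14% lower and 2.4% without direction). The median was -0.402 over the members and 0.041 over all genes, and 7 members read above 0. In the large subunit 19 of 48 were called and in the small subunit 12 of 29. With LIF in both groups 39 members were called, 36 lower, none higher and 3 without direction, where 16.9% of all genes were called (5.63% higher, 8% lower and 3.27% without direction). The median with LIF was -0.486 over the members and 0.053 over all genes, and 4 members read above 0. These 2 comparisons share no array and had 20 called members in common, 64.5% of the first and 51.3% of the second. Here too the overlap over all genes was not counted. The count without LIF fell to 10 without CpG-A replicate 1, the array with the lowest member median, and to 15 without CpG-A replicate 3. Over all 19751 genes 1996 and 2051 were called in these 2 fits, against 2560 with every array. The member share thus lay little above that of all genes without CpG-A replicate 1. Without CpG-B replicate 1, 2 or 3 the member count was 16, 18 or 20, and 1909, 2136 or 2152 of all genes were called. The median of the members lay between -0.436 and -0.299 under these 5 omissions. Among the pDC markers 12 of 15 were called without LIF (9 higher with CpG-A, 1 lower and 2 without direction, median 0.620) and 11 of 15 with LIF (6 higher, none lower and 5 without direction, median 0.649), so most of them that had a direction moved opposite to the members. Of the B cell, conventional DC and macrophage, and T, NK and neutrophil markers 3 of 9, 3 of 11 and 1 of 10 were called without LIF, and 5, 4 and 1 with LIF. Their part in the members' readings was not tested.

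Without LIF the largest called differences were those of Mrps27 (-1.56 or 1.76), Mrpl23 (-1.17 or 2.15), Mrpl42 (-1.15 or 2.17), Mrps28, Mrpl12 and Mrpl50 (-0.90, adjusted p = 0.0184). Mrpl23 has 2 probe sets, and the second gave -1.10 (adjusted p = 7.23e-05 in the fit of all probe sets), so both read alike. With LIF they were Mrps27 (-1.58 or 1.75), Mrpl23 (-1.19 or 2.13), Mrpl50 (-1.08, adjusted p = 0.00458), Mrpl42 (-1.02, adjusted p = 0.000538), Mrpl15 (-0.999, SE 0.15, adjusted p = 0.000109) and Mrpl19 (-0.998, SE 0.18, adjusted p = 0.000541). Mrps18b was the called member with a positive nearest reading there (1.50 or -1.82). With LIF, Mrpl42 read -0.72, -0.40 and -0.24 on the CpG-A + LIF arrays and 0.70, 0.60 and 0.40 on the CpG-B + LIF arrays, a gap around the medium values. Calls near the threshold were less stable: Mrps30, Mrpl55 and Mrps12 had adjusted p = 0.0459, 0.0475 and 0.0334 without LIF, and over the other settings these ran from 0.0086 to 0.161, from 0.03 to 0.17 and from 0.00371 to 0.112.

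**Figure D4:**
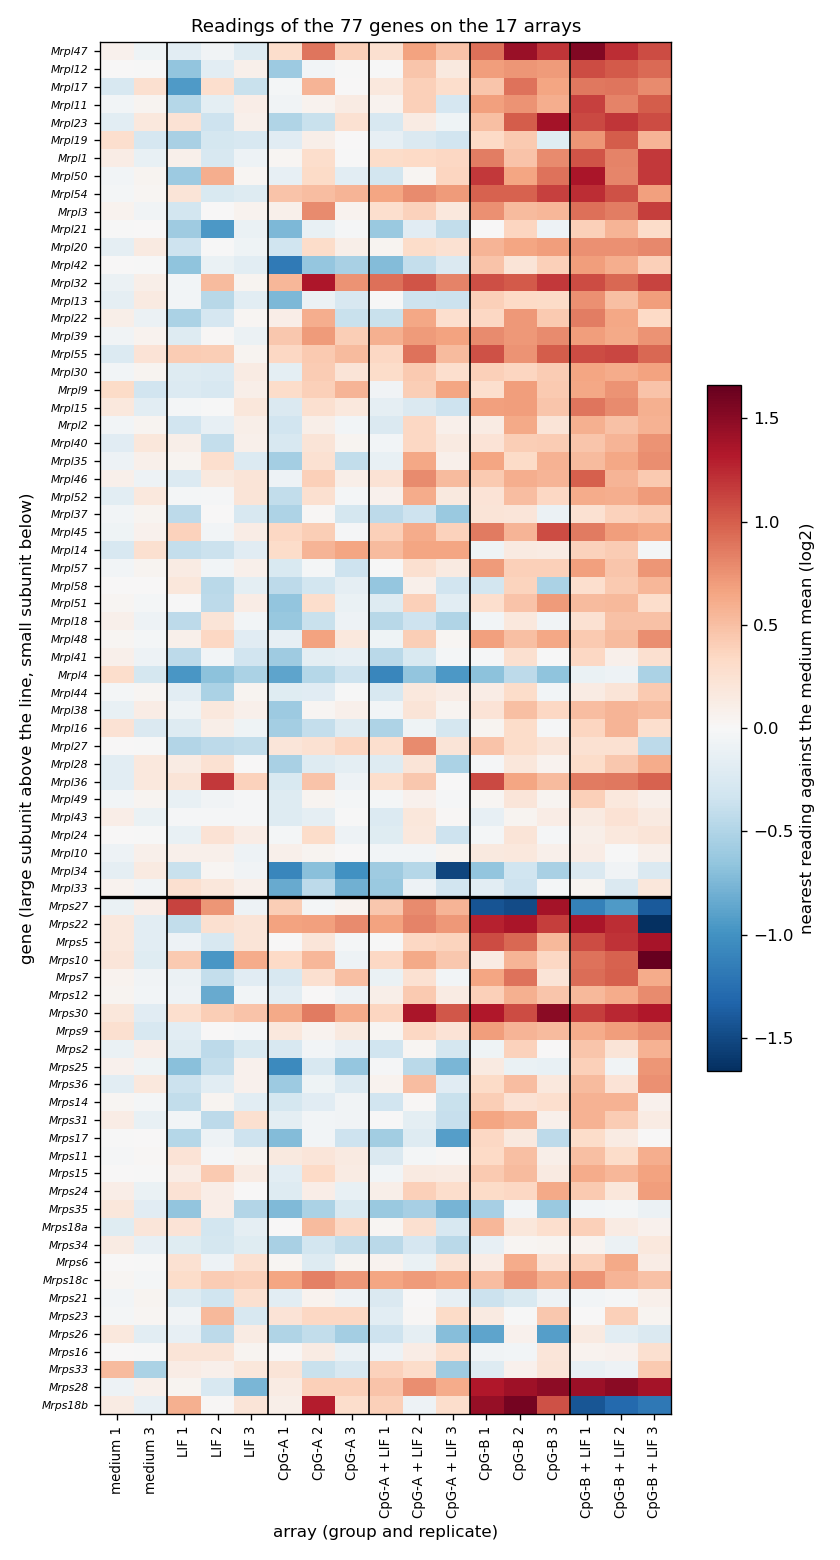
Rows are the 77 genes, ordered within each subunit by their reading in CpG-B + LIF against LIF, columns are the 17 arrays, and colour is the nearest reading (log2) against the mean of the 2 medium arrays. Most rows are red in the 6 columns with CpG-B; blue cells there in Mrps27, Mrps18b and Mrps22 lie beyond -0.9 and have a second reading 3.32 higher.

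LIF alone moved no member past the threshold. LIF against medium called 0 of 77 (limma, 6 at an unadjusted p under 0.05), where 0.81% of all genes were called. The median reading was -0.079, against -0.024 over all genes. LIF added to CpG-A called 0 (8 at an unadjusted p under 0.05) with a median of 0.096 and 52 of 77 above 0, where 0.00506% of all genes were called. LIF added to CpG-B called 0 (10 at an unadjusted p under 0.05) with a median of 0.164 and 64 of 77 above 0, where 0.0608% of all genes were called. All 3 counts were 0 under each of the 24 alternatives. The member medians of the CpG-B + LIF arrays all lay above those of the CpG-B arrays, whereas the medians of the CpG-A and CpG-A + LIF arrays overlapped; same-numbered arrays read higher with LIF in all 3 pairs of each. A fit of the CpG-B and CpG-B + LIF arrays alone, paired by number, called 0 members as well (limma, 18 at an unadjusted p under 0.05, smallest adjusted p = 0.2). The difference between the last 2 LIF effects called no member either (smallest adjusted p = 0.93, 6 at an unadjusted p under 0.05; 0% called across all genes). Its largest member value was that of Mrps18b, at 1.02 (SE 0.35, unadjusted p = 0.00864). On simulated data for CpG-A against medium the fit recovered 57% of genes changed by 0.75 and 78% of genes changed by 1 (log2 scale). The LIF comparisons, in which few genes were called, were not simulated. Shifts of single genes with LIF, these sizes included, can therefore pass unseen at an unknown rate.

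The members were not uniform. Over the 9 comparisons, which share arrays, 65 of the 77 (84.4%) were called at least once and 12 never, where 40.2% of all genes were called at least once. In at least 3 comparisons 39% of the members and 20.5% of all genes were called, and in at least 5 comparisons 6.49% and 4.11%. The members never called through the probe sets used were, under large subunit names, Mrpl10, Mrpl24, Mrpl43, Mrpl49 and Mrpl51. Under small subunit names they were Mrps6, Mrps16, Mrps18a, Mrps21, Mrps23, Mrps26 and Mrps33. Second probe sets of Mrpl51 and Mrps33 were called, in 1 and 3 comparisons. Called in a single comparison were 18 members, in 2 comparisons 17, in 3 comparisons 10, in 4 comparisons 15, in 5 comparisons 4, and in 6 comparisons 1. The spread between arrays of a group had a median SD of 0.214 over the members and 0.190 over all genes. Members with a bacterial counterpart (46) and mitochondria-specific members (30) were counted apart. With CpG-B 15 of 46 (32.6%) and 10 of 30 (33.3%) were called, where 19.2% of all genes were called. The medians were 0.380 and 0.353, against -0.051 over all genes. With CpG-B + LIF against LIF 31 of 46 (67.4%) and 18 of 30 (60%) were called, where 25.4% of all genes were called. The medians were 0.688 and 0.557, against -0.040 over all genes. Mrps36 was placed in neither class, because later work assigns it to a metabolic enzyme complex and not to the ribosome. It read higher with CpG-B + LIF (0.66, adjusted p = 0.0154).

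Other proteins of mitochondrial translation were read in the same fits. The shares of all genes called were 19.2% with CpG-B (6.94% higher), 25.4% with CpG-B + LIF against LIF (10.5% higher) and 16.7% with CpG-A. Of 4 mitochondrial ribosome proteins with other names, 2 were called with CpG-B, both higher, Ptcd3 (0.80, adjusted p = 0.00223) and Chchd1 (0.68, adjusted p = 0.00631), both of the small subunit. With CpG-B + LIF against LIF all 4 were called, and all read higher. Of 15 translation factors and related proteins 4 read higher with CpG-B and none lower. They included Gfm1, the mitochondrial elongation factor G (0.85, adjusted p = 7.86e-05), and Lrpprc (0.92, adjusted p = 0.000358) and Slirp (0.92, adjusted p = 0.000175), partners that stabilise mitochondrial messages. With CpG-A against medium 1 of 15 was called, Slirp (0.73, adjusted p = 0.00165).

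Of 26 assembly and rRNA modification factors 6 were called with CpG-B, 3 higher, 2 lower and 1 without direction. That is 23.1%, near the 19.2% of all genes. Fastkd2, an RNA-binding assembly factor, read 0.98 (adjusted p = 0.00527), Rbfa, a maturation factor of the small subunit, read -0.93 (adjusted p = 0.000972), and Tfb1m, the methyltransferase of the small ribosomal RNA, gave 1.23 or -2.09. Rbfa also read lower with CpG-A (-0.93, adjusted p = 0.00122). None of 19 mitochondrial aminoacyl-tRNA synthetases and charging enzymes was called with CpG-B (limma, 5 at an unadjusted p under 0.05), where 19.2% of all genes were called. With CpG-B + LIF against LIF 9 of 19 read higher, among them Yars2 (1.02, adjusted p = 0.00366), where 25.4% of all genes were called. The interaction of LIF with CpG-B called none of the 19 (limma, smallest adjusted p = 0.415, 2 at an unadjusted p under 0.05). The median readings of the synthetases were 0.104 and 0.477 in these 2 comparisons. Of 11 genes of mitochondrial DNA transcription and replication 3 were called with CpG-B (27.3%, against 19.2% of all genes), 1 in each direction and 1 without.

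Nuclear regulators were counted too, and 3 of 12 were called with CpG-B (25%, against 19.2% of all genes). Pprc1, a coactivator of the PGC-1 family, read higher (1.06, SE 0.15, adjusted p = 5.23e-05), as did Gabpb1, a GABP subunit (0.59, adjusted p = 0.0427). Myc gave 1.55 or -1.77 with CpG-B and -1.41 or 1.91 with CpG-A, neither with a direction. The nuclear factors Nrf1, Gabpa and Yy1 were not among the called genes there.

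The cytosolic ribosome, whose proteins are also made in the cytosol but stay there, gave another pattern (60 genes). This list was taken by symbol. It includes variant names such as Rpl3l, Rpl7l1, Rpl10l and Rps27l, whose place in the ribosome was not checked. With CpG-A against medium 26 were called (43.3%, against 16.7% of all genes), 1 higher, 21 lower and 4 without direction, with a median of -0.458. With CpG-B against medium 4 were called (6.67%, against 19.2% of all genes), with a median of -0.012. Rps27l (0.95) and Rpl7l1 (0.86) were among these 4. CpG-A against CpG-B called 29 (48.3%, against 13% of all genes), none higher, 27 lower and 2 without direction. Its median was -0.415, close to the -0.402 of the mitochondrial list. The same gap between the oligonucleotides thus stood above medium for the mitochondrial proteins with CpG-B and below medium for the cytosolic proteins with CpG-A, as medians, with no test between the lists. With CpG-B + LIF against LIF 17 of 60 cytosolic genes were called, 11 higher, 1 lower and 5 without direction. That is 28.3%, near the 25.4% of all genes.

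**Figure D5:**
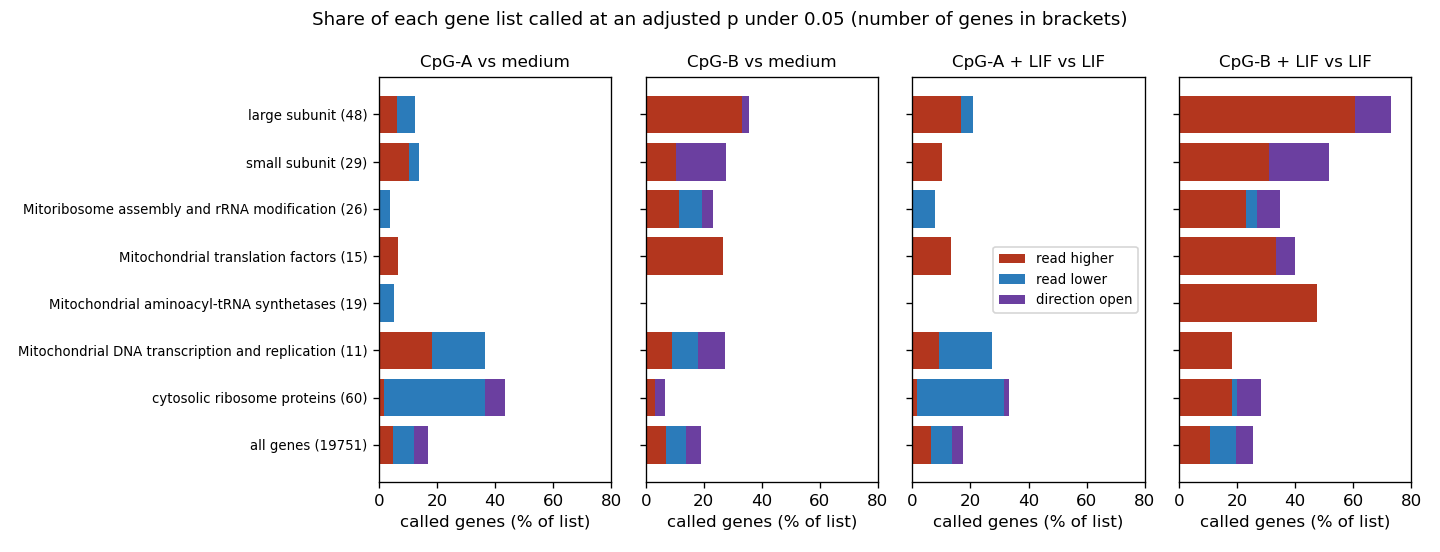
Bars give the share of each gene list called at an adjusted p under 0.05 (horizontal axis, percent of the list) in 4 comparisons, split into read higher, read lower and direction open. The large subunit reaches 72.9% and the small subunit 51.7% in CpG-B + LIF against LIF, where 25.4% of all genes are called, and 21 of the 26 cytosolic genes called in CpG-A against medium read lower.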

How the data were processed

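Total RNA of sorted mouse pDC was hybridised to 17 Affymetrix arrays. The authors deposited 1 table of 24680 probe sets, whose values are the digits of linear intensities. RMA is named in the submitters' processing notes; its version and level of summary are unstated in the labels. All but 1 of 419560 cells lack a decimal mark, and 90.0% have 10 digits. The power of 10 of a deposited intensity is therefore unknown, and the depth or signal over background behind a value cannot be given; the number of arrays limits the precision. Because the deposited unit is not a plain intensity, log2 values modulo log2(10) were used, as the design had assumed.

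Probe sets were named from the platform annotation: 21354 had 1 symbol, 1275 several and 2051 none. A gene was read from its probe set with the most listed accessions, and ties went to the lower probe set number. All 77 members matched RefSeq by gene identifier with the same symbol. Group means were circular, arrays were placed by the shortest way to their group mean, and limma 3.58.1 in R 4.3.3 (lmFit and eBayes, 1 coefficient per group, all 17 arrays, 11 residual degrees of freedom) gave contrasts folded to the nearest reading. Interactions are differences of 2 nearest readings, not folded. The script was tested on simulated data with 200 changed genes, where it made 8 false calls for CpG-A against medium. The members, gene lists, tests and limits were chosen with earlier results of these data known, and the difference between the 2 LIF effects was added after its inputs were seen. Every called member is named where at most 12 are called, otherwise up to 6 with the largest positive and 6 with the largest negative readings; members called in 3 or more comparisons are described array by array, at most 12 by smallest sum of adjusted p. From other lists at most 3 called genes per comparison are named, by adjusted p. Other genes named with a value were picked after their values were seen. Same-numbered CpG-B and CpG-B + LIF arrays deviated together (r of 0.126 to 0.243 in the 3 pairs, across genes), so a paired fit was added for LIF with CpG-B; the labels do not say what a number marks. Alternatives were the replicate block, another unwrapping, array centring, robust eBayes, all probe sets, a spread filter, only the groups compared, and leaving out each array.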

Additional observations from a re-analysis of the deposited data

How the results depend on the processing

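The 11 member counts were recomputed under 24 alternatives each. The spread filter, which keeps 17314 genes and 63 of 77 members, lowered some counts, and fewer members were tested there. They became 5 (CpG-A against medium), 15 (CpG-B against medium), 17 (CpG-A against CpG-B without LIF) and 8 (CpG-A + LIF against LIF). Of the genes kept, 1879, 2124, 1292 and 1851 were called, in the same order. Fitting only the groups compared gave 8 for CpG-A + LIF against LIF, where 2775 of all genes were called. Leaving out each array in turn gave 4 to 11 for CpG-A against medium, 15 to 28 for CpG-B against medium, 10 to 32 for CpG-A against CpG-B, 28 to 43 for the same with LIF, 8 to 13 for CpG-A + LIF against LIF and 39 to 54 for CpG-B + LIF against LIF. Without 1 medium array the other is assumed to vary like the other groups. The counts of 0 stayed 0. Same-numbered arrays correlated in their deviations from the group means with a median r of 0.016 (40 pairs across genes, from -0.080 to 0.243). The 3 pairs of CpG-B with CpG-B + LIF arrays all exceeded 0.1 (0.126 to 0.243), and no other pair of groups had this, so the numbers were taken as pairs in that comparison only. A paired fit of those 6 arrays, chosen after seeing the data, called 0 members. With the replicate block the counts against medium were 11 for CpG-A and 23 for CpG-B. They were 31 and 42 for CpG-A against CpG-B without and with LIF. Against LIF they were 14 for CpG-A + LIF and 52 for CpG-B + LIF. Calls over all genes moved between fits too. CpG-A against CpG-B called 1996 genes without CpG-A replicate 1, against 2560 with every array. For the replicate block and most of the ranges, counts over all genes are not given. These member counts therefore do not tell a change in the members from a change over all genes.

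For single genes named in the text, 1656 of 1781 alternative values kept direction and call, 109 lost the call and 16 changed sign; 43 of 76 gene results kept both throughout. All sign changes were readings near the edge of the period, for which no direction is given. Mrps27 became 1.65 for CpG-B against medium under the replicate block and 1.70 under the other unwrapping. Leaving out each array, its readings ran from -1.62 to 1.63 for CpG-B against medium, from -1.56 to 1.63 for CpG-A against CpG-B, from -1.58 to 1.66 for the same with LIF, and from -1.62 to 1.65 for CpG-B + LIF against LIF. Under the other unwrapping Mrps18b became -1.82 for CpG-A against CpG-B with LIF and 1.75 for CpG-B + LIF against LIF, and Mrps28 1.76 for the latter. Leaving out each array, that last comparison ran from -1.63 to 1.62 for Mrps18b and from -1.59 to 1.54 for Mrps28. Changes over 3.16-fold are misread in these data, so a member with a large change can appear small or opposite.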

Other observations

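The readings of the 3 differences among medium, CpG-A and CpG-B should close, and those among LIF, CpG-A + LIF and CpG-B + LIF likewise. They did not close for 1 member in each set of 77, Mrps27 without LIF and Mrps28 with LIF, so at least 1 nearest reading of each of these genes is off by a period.

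The second probe sets of 8 genes gave these values in CpG-B + LIF against LIF, in the fit of all probe sets. Mrpl23 read 1.13 and 1.12, Mrps5 1.27 and 1.21, Mrps36 0.66 and 0.70, and Mrpl41 0.50 and 0.55. Mrpl27 read 0.46 and 0.03, Mrpl47 1.43 and 0.44, Mrpl51 0.55 and 0.96 (the latter called, adjusted p = 0.0276 by limma), and Mrps33 -0.06 and 0.36. In this comparison the first 4 genes read alike and the last 4 lay further apart, although the Mrpl51 readings had SE 0.21 and 0.31. Genes of the first 4 could differ elsewhere. With CpG-B against medium, Mrps5 read 0.86 and 0.47 (adjusted p = 0.00268 and 0.12 by limma). Mrps36 read 0.33 and 0.68 there (adjusted p = 0.342 and 0.0268 by limma). The second probe set of Mrps33, a gene never called through its first, was called in CpG-A against CpG-B without LIF (-0.72, adjusted p = 0.00232 by limma) and with LIF (-0.57, adjusted p = 0.00937), and in CpG-A against medium (-0.55, adjusted p = 0.0227).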
